A study of Drosophila melanogaster with 20 samples.

Results

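CCHamides are short, amidated peptide hormones of insects, and Drosophila has a pair of them, CCHa1 and CCHa2. Each is cut from a precursor protein and acts through a G protein-coupled receptor of its own, CCHa1 through CCHa1-R and CCHa2 through CCHa2-R. In larvae and adults both peptides are made by endocrine cells of the gut, CCHa2 also by the fat body and CCHa1 also by clock neurons, and CCHa2-R acts in the brain cells that make insulin-like peptides. The 4 genes of this system, out of 17714 genes in the files, are described here across the embryo groups of a study of the Wnt ligand Wnt4 and the Wnt co-receptor Otk. They were taken by name, and CCHa1-R was chosen by its measured values: its level was higher in otk1 RNAi than in WT where other receptors were lower. That contrast is given below as a description with no test.

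RNA came from whole embryos of mixed ages, collected over 24 h of egg laying at 25 °C, in 10 groups with 2 libraries each. Transgenes were driven by a combination of a maternal GAL4 and daughterless GAL4, which together drive expression from the mother and then throughout the embryo. The groups were WT (labelled as the control genotype; whether it carried the drivers is not stated), UAS-wnt4 and UAS-otk1, which overexpress wnt4 or otk1, UAS-otk1 UAS-wnt4, which carries both transgenes, and 6 groups that express RNAi transgenes: otk2 RNAi, wnt4 RNAi, otk1 RNAi, otk1 RNAi wnt4 RNAi, otk2 RNAi wnt4 RNAi and otk1 RNAi otk2 RNAi. The methods list more than 1 RNAi stock for otk1 and for otk2, without saying which of them was sequenced. Whether replicate libraries stem from separate egg collections is not stated either, so the spread behind each p-value may be technical.

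The annotation names the targeted genes otk (otk1), otk2 and Wnt4, and they were read first as a check of the labels. The otk level was 46.0 to 91.3 CPM (the count of a gene relative to the scaled total of its library) in the 6 libraries with otk1 RNAi, below all 14 others, which ranged from 112.3 CPM in an otk2 RNAi library to 2194 CPM in a UAS-otk1 library. The otk2 mean was 26.0, 25.7 and 20.2 CPM in the groups with otk2 RNAi against 64.5 CPM in WT. Wnt4 went against its label: its mean was 151 ± 11.1 CPM (SD, n = 2) in the libraries labelled wnt4 RNAi and 116.5 ± 13.7 CPM (SD, n = 2) in WT. In otk1 RNAi wnt4 RNAi and otk2 RNAi wnt4 RNAi it was 82.9 and 78.9 CPM, beside 89.7 CPM in otk1 RNAi and 73.7 CPM in otk2 RNAi, which carry no wnt4 RNAi label. A comparison with the libraries labelled wnt4 RNAi is therefore not known to be a comparison with reduced Wnt4. Total counts lay between 33641557 and 41753919 per library. A stage score differed between libraries as well. The score, the mean log2 CPM of 50 late genes (cuticle, muscle, neuron) minus that of 36 early genes, was 1.97 and 0.67 in WT and −0.97 to −0.03 in the 6 otk1 RNAi libraries. Embryo age and other changes in those late and early genes cannot be told apart in it.

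All 4 genes were rare, but all passed the filter of a mean of 10 counts. On the dm6 assembly CCHa1 (FBgn0038199) lies on the minus strand of chromosome 3R from 14092504 to 14096835, with 4 exons, and had 0 to 23 counts per library (mean 12.1). CCHa2 (FBgn0038147) lies on the same strand of 3R from 13389059 to 13395197, with 4 exons, and had 24 to 136 counts (mean 59.6). The receptors are both on 2R. CCHa1-R (FBgn0050106) spans 17646848 to 17665068 on the minus strand with 9 exons and had 9 to 444 counts (mean 80.6). CCHa2-R (FBgn0033058) spans 6050949 to 6068680 on the plus strand with up to 8 exons and had 11 to 96 counts (mean 42.9). Only CCHa2-R has another annotated gene inside its span, CG7856 on the opposite strand, which shares no exon with it and had a mean of 1.25 counts. The estimated counts of the 4 genes were whole numbers in all 20 libraries.

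Levels can be compared between genes only per length, here in TPM (transcript abundance corrected for length). In WT, CCHa2 had the highest mean of the 4 genes at 3.62 ± 0.728 TPM (SD, n = 2), CCHa2-R had 0.875 ± 0.304 TPM, CCHa1 had 0.755 ± 0.488 TPM and CCHa1-R was lowest at 0.37 ± 0.17 TPM. Below CCHa2, neighbours in this order lay within each other's spread. CCHa1-R was the lowest of the 4 genes by mean TPM in all 7 groups without otk1 RNAi and the highest in otk1 RNAi (5.2 ± 1.03 TPM) and in otk1 RNAi wnt4 RNAi (1.85 ± 0.594 TPM). In otk1 RNAi otk2 RNAi its mean of 1.3 ± 0.262 TPM came after that of CCHa2, 1.97 ± 0.679 TPM. The ratio of the mean TPM of CCHa1-R to that of its ligand CCHa1 was thus 7.82, 2.72 and 3.33 in the groups with otk1 RNAi, and between 0.285 and 0.792 in the others.

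CCHa1-R, the receptor of CCHa1, was high in every library that carried otk1 RNAi and low in every other. Its level was 14.1 and 10.6 CPM in otk1 RNAi, 6.34 and 4.845 CPM in otk1 RNAi wnt4 RNAi and 3.56 and 2.89 CPM in otk1 RNAi otk2 RNAi. Those are 107 to 444 counts per library. In WT the libraries had 1.11 and 0.544 CPM (40 and 19 counts). The remaining 12 libraries were at 0.264 to 0.898 CPM, which is 9 to 30 counts. In order of their means, the 3 groups with otk1 RNAi did not overlap one another or any other group, while each of the other 7 groups, from WT at 0.827 CPM down to otk2 RNAi wnt4 RNAi at 0.4 CPM, overlapped its neighbour in that order. The contrast that chose the gene, otk1 RNAi against WT, was a log2 fold change of 3.89 ± 0.45 (SE). It is a description. In bulk RNA, a change in the number of cells that express a gene and a change in the RNA per cell cannot be told apart.

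**Figure D1:**
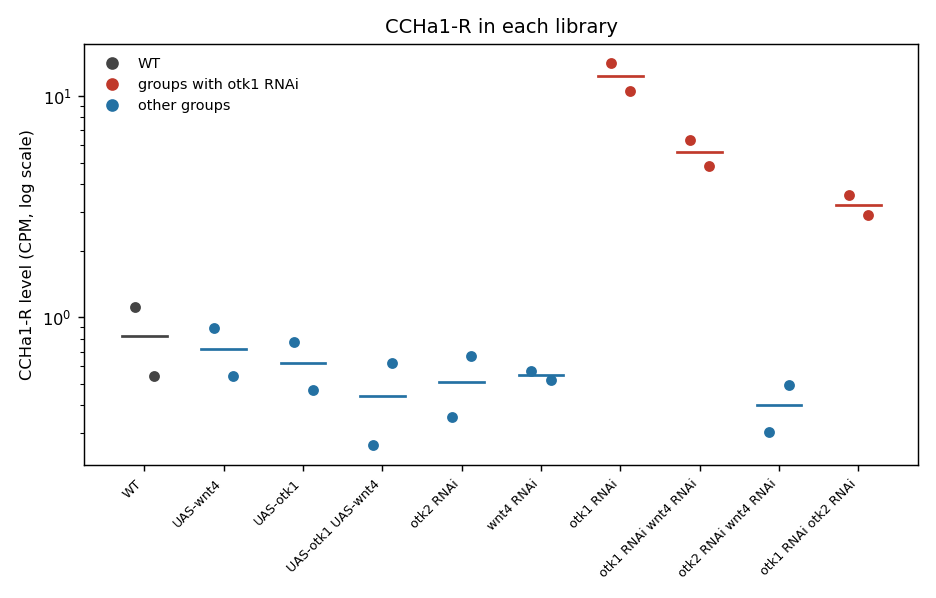
CCHa1-R level in CPM (log scale) in each of the 20 libraries, by group; points are libraries, bars are group means. The 6 libraries with otk1 RNAi sit between 2.89 and 14.1 CPM and the 14 others between 0.264 and 1.11 CPM.

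The level of CCHa1-R was therefore tested in libraries that did not choose it, by adding otk1 RNAi to a background that had neither WT nor otk1 RNAi libraries in it. Adding otk1 RNAi to wnt4 RNAi raised CCHa1-R from 0.571 and 0.523 CPM to 6.34 and 4.845 CPM, a log2 fold change of 3.35 ± 0.47 (adjusted p = 0.00368, quasi-likelihood test of edgeR, Benjamini-Hochberg over 11154 genes, threshold 0.1). Of all genes tested, 0.646% passed the threshold in this comparison, and 0.287% were higher. Adding otk1 RNAi to otk2 RNAi raised it from 0.355 and 0.67 CPM to 3.56 and 2.89 CPM, a log2 fold change of 2.65 ± 0.46 (adjusted p = 0.00688 by edgeR), where 8.68% of genes passed and 3.59% were called higher. The spread in these tests was estimated from all 20 libraries, WT and otk1 RNAi included. With only the groups compared, adjusted p by edgeR was 0.0511 in the wnt4 RNAi background and 0.071 in the otk2 RNAi background. Both libraries with otk1 RNAi lay above both without it in either background. How many of all genes do so was not computed, so nothing is read from that separation. Wnt4 also differed in the former comparison (−0.87 ± 0.15 (SE) on the log2 scale, adjusted p = 0.0259 by edgeR), but had −0.02 ± 0.15 (adjusted p = 0.955) in the latter.

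Averaged over both backgrounds, the log2 fold change of CCHa1-R was 2.996 ± 0.33 (adjusted p = 0.00023 by edgeR), the gene ranking 28 from the highest change and 11 by p among 11154 genes; 3.81% of genes passed and 2.47% were called higher in that comparison. Across 15 alternative settings this value stayed between 2.79 and 3.26, with adjusted p up to 0.00426. In the wnt4 RNAi background the call was lost without replicate 2 of the libraries labelled wnt4 RNAi, where the log2 fold change was 3.29 (adjusted p = 0.112 by edgeR). The same RNAi label is shared by the groups that chose the gene and the groups that tested it, so an effect of the reduced otk and any other effect of the otk1 RNAi transgene cannot be told apart.

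The 4 libraries that carry otk1 RNAi with a partner were all above the 12 libraries of the 6 groups that carry neither otk1 RNAi nor the WT label, the lowest of them 3.22 times the highest of those 12. Of all genes tested, 0.296% separated the 4 from the 12 upwards. With otk1 RNAi and WT included, which chose the gene, the lowest of 6 was 2.6 times the highest of 14; this is a description, given beside the 0.224% of genes that separated in that way, and nothing is read from it.

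The size of the change in CCHa1-R was also compared between the groups with otk1 RNAi. As a description, its log2 fold change against WT was 2.75 ± 0.44 in otk1 RNAi wnt4 RNAi and 1.95 ± 0.44 in otk1 RNAi otk2 RNAi. Against otk1 RNAi, the level was lower by a log2 fold change of −1.14 ± 0.40 where wnt4 RNAi was added and −1.94 ± 0.41 where otk2 RNAi was added. These values share the libraries that chose the gene and carry no test. The direct comparison of the groups that carry a partner, which was added after the data were examined, gave a log2 difference of 0.80 ± 0.40 (adjusted p = 0.165 by edgeR), not past the threshold, in a comparison where 31.9% of genes passed. The effect of otk1 RNAi in the wnt4 RNAi background minus that in the otk2 RNAi background, also added later, was 0.70 ± 0.65 (adjusted p = 0.614 by edgeR), where 2.05% of genes passed, so a difference between the backgrounds was not shown.

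**Figure D2:**
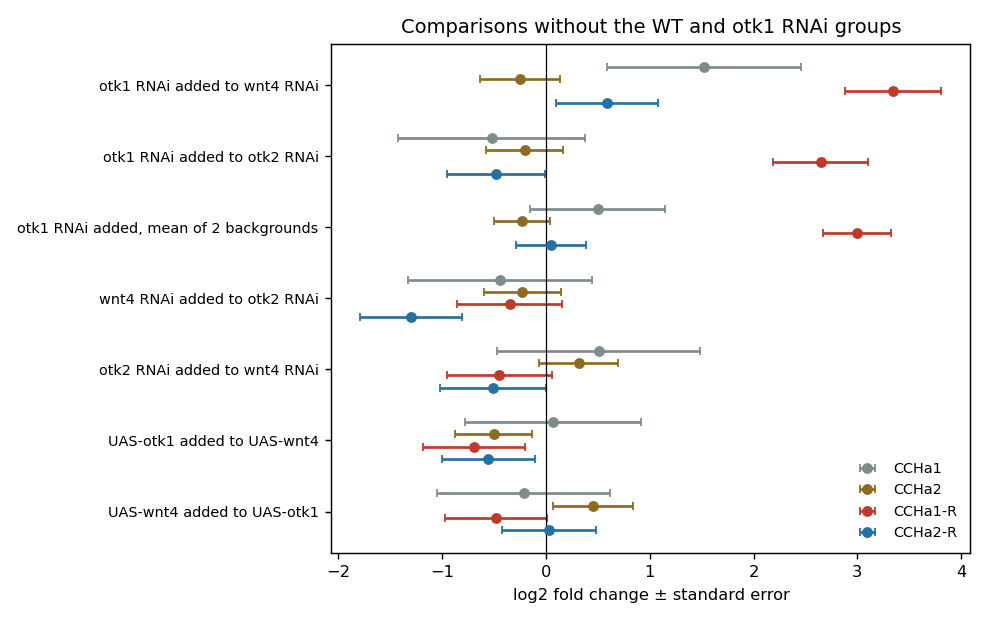
Log2 fold change ± standard error (x axis) of the 4 genes in 7 comparisons that use neither WT nor otk1 RNAi libraries (y axis), from the edgeR fit of all 20 libraries. CCHa1-R lies at 2.65 to 3.35 in the 3 comparisons in which otk1 RNAi was added and between −0.69 and −0.35 in the 4 others.

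In the 4 comparisons between groups that carry neither the WT label nor otk1 RNAi, CCHa1-R did not pass the threshold. Adding the wnt4 RNAi label to otk2 RNAi gave a log2 fold change of −0.35 ± 0.51 (adjusted p = 0.687 by edgeR), where 20.8% of genes passed and Wnt4 itself had a log2 fold change of 0.10 ± 0.15 (adjusted p = 0.712). Adding otk2 RNAi to the libraries labelled wnt4 RNAi gave −0.45 ± 0.51 (adjusted p = 1 by edgeR), where 0.179% passed. UAS-otk1 added to UAS-wnt4 gave −0.69 ± 0.49 (adjusted p = 0.787 by edgeR), where 0.215% passed, and UAS-wnt4 added to UAS-otk1 gave −0.48 ± 0.49 (adjusted p = 0.665 by edgeR), where 0.717% passed. The libraries with UAS-otk1 had 1469 to 2194 CPM of otk and 0.264 to 0.775 CPM of CCHa1-R. With 9 to 30 counts per library in these groups, the standard errors are near 0.5 on the log2 scale. As a description with no test, since the WT libraries chose the gene, the log2 fold change of CCHa1-R against WT was negative in all 6 of these groups, from −0.20 ± 0.46 in UAS-wnt4 to −1.04 ± 0.48 (SE) in otk2 RNAi wnt4 RNAi.

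Across libraries, CCHa1-R was high only where otk was lowest. This and the order below are descriptions with no test, since they include the otk1 RNAi and WT libraries that chose the gene. The 6 libraries with the least otk had 2.89 to 14.1 CPM of CCHa1-R. Mean otk was 51.0 ± 7.08 CPM in otk1 RNAi, 54.1 ± 1.86 CPM in otk1 RNAi wnt4 RNAi and 75.9 ± 21.9 CPM in otk1 RNAi otk2 RNAi (SD, n = 2), the reverse of the order of their CCHa1-R means. The otk levels of the former pair of groups overlapped, those of otk1 RNAi otk2 RNAi (60.4 and 91.3 CPM) lay above both, and within otk1 RNAi and otk1 RNAi otk2 RNAi the library with more otk had more CCHa1-R.

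**Figure D3:**
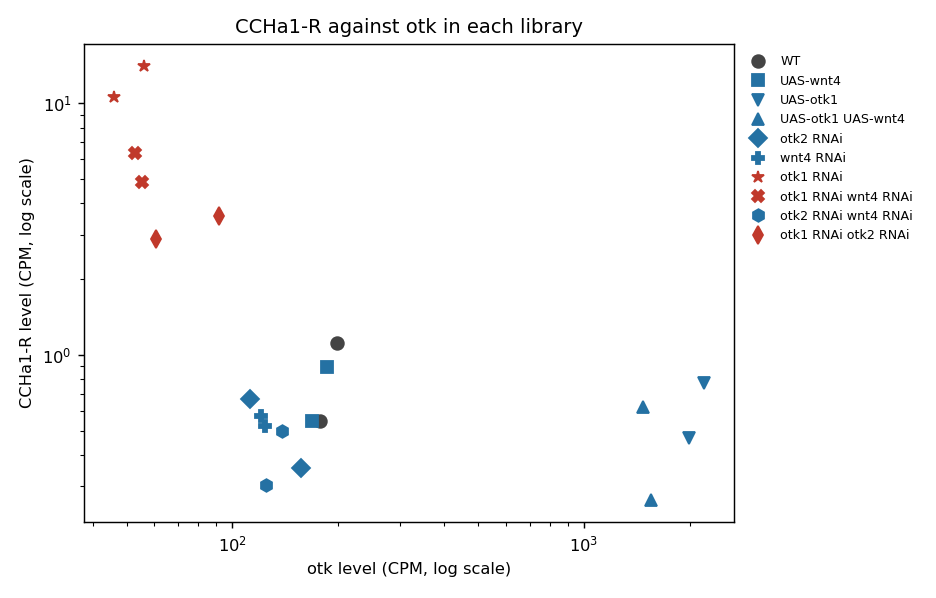
CCHa1-R level (y axis, CPM, log scale) against the level of otk (x axis, CPM, log scale) in each library; the marker shape gives the group and red marks groups with otk1 RNAi. The 6 red points lie at 46.0 to 91.3 CPM of otk; to their right, between 112.3 and 2194 CPM, no library exceeds 1.11 CPM of CCHa1-R.

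No change was detectable in CCHa1, the ligand of CCHa1-R, in the same comparisons. CCHa1 had 23 and 8 counts in WT, 14 and 12 in otk1 RNAi, 15 and 15 in otk1 RNAi wnt4 RNAi and 7 and 10 in otk1 RNAi otk2 RNAi. The groups overlap. The lowest library was replicate 2 of those labelled wnt4 RNAi, with 0 counts, which allows a level of up to 0.0979 CPM (3 counts in that library). Averaged over both backgrounds, adding otk1 RNAi gave a log2 fold change of 0.50 ± 0.65 (adjusted p = 0.686 by edgeR). That value moves with the library at 0: without it the mean was −0.002. Against WT, CCHa1 was past the threshold in 0 of 8 groups by edgeR (adjusted p = 0.281 to 0.99), in 0 at an unadjusted p under 0.05 and in 0 by DESeq2. Of all genes, 0.61% passed in UAS-wnt4, 2.84% in UAS-otk1, 4.82% in UAS-otk1 UAS-wnt4, 1.78% in otk2 RNAi, 59.2% in the libraries labelled wnt4 RNAi, 62.2% in otk1 RNAi wnt4 RNAi, 54.7% in otk2 RNAi wnt4 RNAi and 46.8% in otk1 RNAi otk2 RNAi. At a mean of 12.1 counts a change of this gene was hardly detectable at this depth, and its test across the 8 groups other than WT and otk1 RNAi gave F = 0.598 (adjusted p = 0.778 by edgeR).

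CCHa2, which signals nutrient state from the periphery to the brain in larvae, was highest in WT. It had 3.78 and 2.83 CPM in WT, 0.825 and 0.71 CPM in otk1 RNAi, 0.865 and 1.40 CPM in UAS-otk1 and 1.13 and 1.405 CPM in otk1 RNAi wnt4 RNAi. Both WT libraries were above all of these, and only UAS-wnt4 replicate 1 (2.81 CPM) and otk2 RNAi replicate 2 (2.62 CPM) came close to the lower of them. All 8 groups tested against WT had a negative log2 fold change, and 4 of them passed the threshold. Those were UAS-otk1 (−1.54 ± 0.38, adjusted p = 0.0923 by edgeR), otk1 RNAi wnt4 RNAi (−1.38 ± 0.38, adjusted p = 0.00766), the libraries labelled wnt4 RNAi (−1.13 ± 0.38, adjusted p = 0.0225) and otk2 RNAi wnt4 RNAi (−0.82 ± 0.37, adjusted p = 0.0825).

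The share of all genes called lower differs widely between those comparisons: 1.65% in UAS-otk1, 31.4% in otk1 RNAi wnt4 RNAi, 29.5% in the libraries labelled wnt4 RNAi and 27% in otk2 RNAi wnt4 RNAi. It was 0.394% in UAS-wnt4, 3.47% in UAS-otk1 UAS-wnt4, 1.31% in otk2 RNAi and 24.4% in otk1 RNAi otk2 RNAi, where CCHa2 did not pass. In otk1 RNAi, as a description, the log2 fold change of CCHa2 was −2.10 ± 0.39, in a comparison with 24.5% of genes called lower. All these comparisons share the WT libraries. Without WT replicate 1, the library with the highest stage score, CCHa2 was no longer past the threshold in UAS-otk1 (adjusted p = 0.646), the libraries labelled wnt4 RNAi (0.139) and otk2 RNAi wnt4 RNAi (0.347). It was also lost in UAS-otk1 without replicate 1 (0.411) or replicate 2 (0.167) of that group, and in otk2 RNAi wnt4 RNAi without replicate 1 (0.221) or replicate 2 (0.198) of that group. Once the stage score entered the model it passed in 0 of the 4, the log2 fold changes being −1.08, −0.85, −0.51 and −0.18. Over all alternatives that left out no single library, the lowest counts of all genes called there were 28, 3906, 597 and 210. As reported, the counts were 317, 6940, 6600 and 6099. The lowest counts need not come from the model with the stage score. Whether the loss is particular to CCHa2 was not tested.

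Among the groups other than WT and otk1 RNAi, CCHa2 was not shown to differ (F = 1.70, adjusted p = 0.252 by edgeR). Adding otk1 RNAi gave −0.23 ± 0.27 as the mean of both backgrounds (adjusted p = 0.649 by edgeR). It was −0.25 ± 0.39 in the wnt4 RNAi background (adjusted p = 0.77) and −0.21 ± 0.37 in the otk2 RNAi background (adjusted p = 0.822), so no change was detectable in either.

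**Figure D4:**
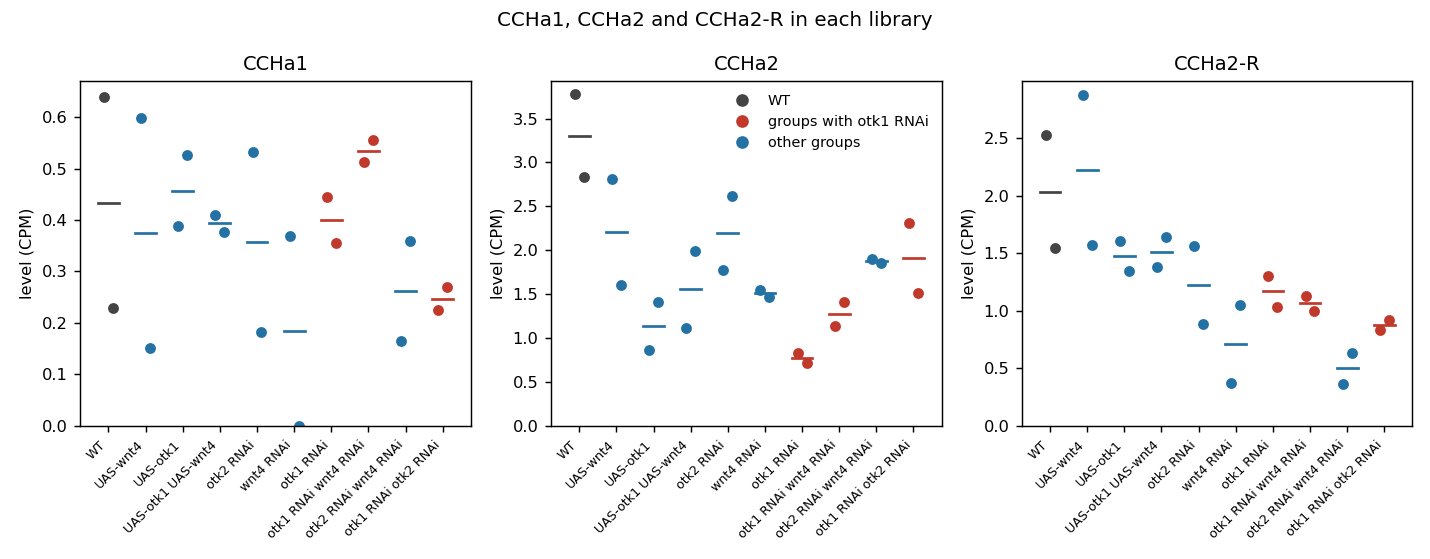
Levels in CPM (y axis, from 0) of CCHa1, CCHa2 and CCHa2-R in each library, by group; points are libraries and bars are group means. CCHa2 is highest in WT (3.78 and 2.83 CPM), CCHa2-R is lowest in otk2 RNAi wnt4 RNAi (0.358 and 0.635 CPM), and CCHa1 has a library at 0 among those labelled wnt4 RNAi.

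CCHa2-R, the receptor of CCHa2, followed another pattern: its mean was lowest in groups with the wnt4 RNAi label or a pair of RNAi transgenes. It had 2.53 and 1.545 CPM in WT, 0.37 and 1.045 CPM in the libraries labelled wnt4 RNAi, 0.358 and 0.635 CPM in otk2 RNAi wnt4 RNAi and 0.833 and 0.917 CPM in otk1 RNAi otk2 RNAi. None of these 3 groups overlapped WT, but neither did otk1 RNAi or otk1 RNAi wnt4 RNAi. The share of all genes without overlap was not computed, so nothing is read from it. The log2 fold changes were −1.52 ± 0.48 (adjusted p = 0.0171 by edgeR), −2.03 ± 0.49 (adjusted p = 0.00525) and −1.21 ± 0.46 (adjusted p = 0.0543), in comparisons with 29.5%, 27% and 24.4% of genes called lower. These 3 groups were the ones called of 8 tested. All 8 comparisons share the WT libraries used in choosing CCHa1-R, where other receptors were lower in otk1 RNAi. Falls of CCHa2-R, another receptor, against WT are therefore not independent of that choice. The group otk1 RNAi wnt4 RNAi, which has both the label and a pair, was not called. It had 1.13 and 0.999 CPM, a log2 fold change of −0.93 ± 0.46 (adjusted p = 0.101 by edgeR). In otk1 RNAi the level was 1.301 and 1.04 CPM, a log2 fold change of −0.80 ± 0.46 as a description. Its libraries overlapped those of otk1 RNAi wnt4 RNAi.

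CCHa2-R also differed among the groups other than WT and otk1 RNAi (F = 4.07, adjusted p = 0.0313 by edgeR), as did 56% of all genes. There the wnt4 RNAi label added to otk2 RNAi gave −1.297 ± 0.49 (adjusted p = 0.0948 by edgeR), beside 6.75% of genes called lower. This call was lost without otk2 RNAi replicate 1 (adjusted p = 0.436), otk2 RNAi wnt4 RNAi replicate 1 (0.459) or otk2 RNAi wnt4 RNAi replicate 2 (0.105). For otk1 RNAi the mean of both backgrounds was 0.05 ± 0.34 (adjusted p = 0.947 by edgeR). Once the stage score entered the model, CCHa2-R passed in 0 of these tests: the log2 fold changes against WT were −0.54, −1.05 and −0.04 and the F test had an adjusted p of 0.173. Over all alternatives that left out no single library, the lowest counts of all genes called in those comparisons against WT were 597, 210 and 103. As reported, the counts were 6600, 6099 and 5223. The lowest counts need not come from the model with the stage score. Whether the loss is particular to CCHa2-R was not tested. Without WT replicate 1 the libraries labelled wnt4 RNAi (adjusted p = 0.14) and otk1 RNAi otk2 RNAi (0.327) were no longer past the threshold, and without wnt4 RNAi replicate 1 the former had an adjusted p of 0.155. The call in otk1 RNAi otk2 RNAi was also lost without replicate 1 (0.165) or replicate 2 (0.159) of that group.

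Over all libraries together, the stage score had a positive correlation with 3 of the 4 genes and a negative one with CCHa1-R. Over the 20 libraries, which share groups and depth, Pearson's r with the score was 0.68 for CCHa2-R, 0.61 for CCHa2, 0.38 for CCHa1 and −0.30 for CCHa1-R. The negative value includes the libraries with otk1 RNAi, which hold all high levels of CCHa1-R and score −0.97 to −0.03. Outside them CCHa1-R was highest in WT replicate 1 (1.11 CPM, score 1.97). It was lowest in UAS-otk1 UAS-wnt4 replicate 1 (0.264 CPM, score 0.12). A relation to the score within those other libraries was not tested. The libraries labelled wnt4 RNAi scored −0.45 and −0.495, and otk1 RNAi wnt4 RNAi −0.03 and −0.40, close to them. In the other background the scores were apart: 0.295 and 0.35 in otk2 RNAi against −0.97 and −0.75 in otk1 RNAi otk2 RNAi. With the score in the model the log2 fold change of CCHa1-R was 3.21 in the former background and 3.24 in the latter. Within groups the score differed most in WT (1.97 and 0.67) and UAS-wnt4 (1.25 and −0.11). The slope of the score in that model rests mainly on those libraries, and WT was used in choosing the gene. Where groups differ in score, score and group cannot be told apart. This limit holds for all values given with the score in the model.

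**Figure D5:**
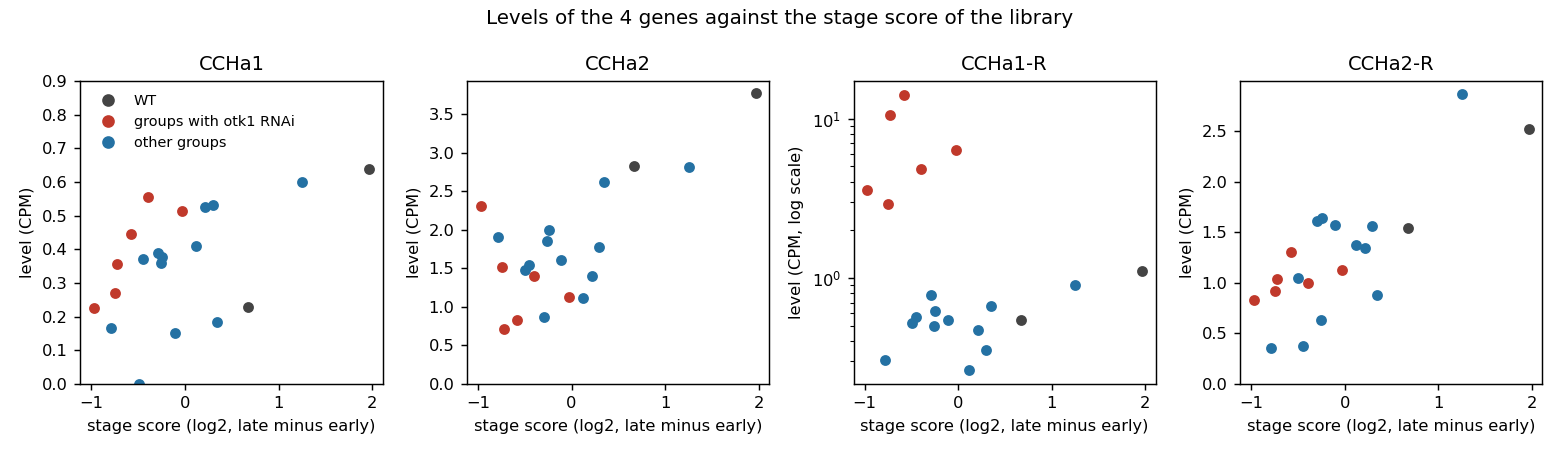
Level in CPM (y axis; log scale for CCHa1-R) of each gene against the stage score of the library (x axis, mean log2 CPM of late genes minus that of early genes). WT replicate 1, at a score of 1.97, has the highest CCHa1 and CCHa2; the 6 libraries with otk1 RNAi stand above all others for CCHa1-R at scores of −0.97 to −0.03.

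Between the 4 genes themselves, levels were only loosely related over the 20 libraries. Pearson's r lay between −0.44 (CCHa2 with CCHa1-R) and 0.33 (CCHa1 with CCHa2-R). It was 0.24 for CCHa1 with its receptor and 0.18 for CCHa2 with its receptor.

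The wider neuropeptide system gives the setting for CCHa1-R. Of 36 other neuropeptide receptors listed, 31 were tested. In otk1 RNAi against WT, which chose the gene, 0 of them were higher and 15 lower, with a median log2 fold change of −0.95 beside 0.002 for all genes and 21% and 24.5% of all genes called higher and lower. With the stage score in the model the median was −0.05 and 0 were called in either direction. The log2 fold change of CCHa1-R in that model was 4.92. Since this contrast chose CCHa1-R against other receptors, its distance from them is a description with no test. Whether the score accounts for their falls was not tested. When otk1 RNAi was added to wnt4 RNAi, 0 of 31 passed the threshold by edgeR and 0 by DESeq2, 1 had an unadjusted p under 0.05, and the median was 0.23. When it was added to otk2 RNAi, 1 of 31 rose and 5 fell, with a median of −0.69, in a comparison with 5.09% of genes called lower. In the wnt4 RNAi background that share was 0.359%.

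The receptor that rose there was CapaR, which binds the Capa peptides (log2 fold change 1.81 ± 0.45, adjusted p = 0.0437 by edgeR). Those that fell were sNPF-R, the receptor of short neuropeptide F (−2.15 ± 0.55, adjusted p = 0.0459), TkR99D, a tachykinin receptor (−1.94 ± 0.48, adjusted p = 0.043), MsR1, a myosuppressin receptor (−1.93 ± 0.54, adjusted p = 0.0597), Dh44-R2, a receptor of diuretic hormone 44 (−0.91 ± 0.26, adjusted p = 0.0636), and Dh31-R, the receptor of diuretic hormone 31 (−0.895 ± 0.28, adjusted p = 0.0856). These 6 were named after their values were seen. Once the stage score entered the model 0 of 31 passed. In the otk2 RNAi background that model called 182 of all genes tested, against 968 without the score. In the mean of both backgrounds 0 of 31 passed by edgeR, 1 was higher and 6 lower at an unadjusted p under 0.05, 0 were higher and 3 lower by DESeq2, and the median was −0.16.

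Of the peptide and hormone precursors other than CCHa1 and CCHa2, 22 were tested. In otk1 RNAi against WT 0 were higher and 11 lower, with a median of −1.01, beside 21% and 24.5% of all genes. With the stage score in the model the median was −0.08 and 0 were called there. When otk1 RNAi was added to wnt4 RNAi 0 of 22 passed by edgeR and 0 by DESeq2, 1 was higher at an unadjusted p under 0.05, and the median was 0.19. When it was added to otk2 RNAi 0 rose and 3 fell (Mip, Dh31 and Nplp1, named after their values were seen), with a median of −0.73. Of all genes, 3.59% were called higher and 5.09% lower there. The stage scores of these groups lay apart, at 0.295 and 0.35 in otk2 RNAi against −0.97 and −0.75 in otk1 RNAi otk2 RNAi. In the mean of both backgrounds 1 fell, Dh31 (−1.296 ± 0.37, adjusted p = 0.0978 by edgeR), with a median of −0.24, beside 1.34% of all genes called lower. Dh31 encodes diuretic hormone 31 and is also made by gut endocrine cells. With RLE scaling 0 of the 22 passed, and by DESeq2 0 of them were called. Gut endocrine cells are the known source of both CCHamides in larvae and adults. Among 8 of their genes 2 fell in that mean by edgeR, beside the same 1.34% of all genes. They were Dh31, already counted among the precursors, and pros, a transcription factor of neurons and endocrine cells (−0.48 ± 0.12, adjusted p = 0.0709). By DESeq2 1 of the 8 was called, as lower. The genes of insulin-like peptides and their receptor (3 tested), of peptide processing (11 tested) and of the Gq and phospholipase C pathway, through which such receptors can signal (8 tested), had 0 calls in that mean by edgeR. At an unadjusted p under 0.05 they had 0, 2 and 3, and by DESeq2 0, 1 and 2, all of them lower.

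Genes next to CCHa1-R on 2R were examined as its surroundings. The nearest gene on its higher side, eIF3c, a subunit of the translation initiation factor eIF3, starts 610 bases away and had a log2 fold change of −0.002 ± 0.10 (adjusted p = 0.993 by edgeR) in the mean of both backgrounds. The nearest gene on the lower side, CG10936, ends 7710 bases away and fell, by −1.19 ± 0.26 in the wnt4 RNAi background (adjusted p = 0.0808), −1.05 ± 0.26 in the otk2 RNAi background (adjusted p = 0.0415) and −1.12 ± 0.18 in their mean (adjusted p = 0.00538). Of 131 genes tested within 500 kb of CCHa1-R, 1 was higher and 2 were lower in that mean, 2.29% beside 3.81% of all genes. Within 100 kb, 48 were tested, with 0 higher and 1 lower (2.08%). These windows were chosen after the values were seen. Of the neighbours of the other 3 genes, Npc2b beside CCHa1 (0.02 ± 0.19) and CG9799 beside CCHa2 (−0.22 ± 0.12) had enough counts to be tested and did not pass.

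Genes with a profile like that of each member were ranked by Pearson's r of log2 CPM over the 20 libraries, among 5864 named genes averaging 100 counts or more. For CCHa1-R they were Blos3 (r = 0.815), Ptp52F (0.813), Acsf2 (0.786), ND-30 (0.772) and Jhbp5 (0.746). For CCHa2-R they were Sk1 (r = 0.925), twit (0.919), Osi12 (0.911), Swip-1 (0.904) and Pdss2 (0.897). For CCHa2 the highest were st (r = 0.79), eIF1A (0.773), GstE6 (0.746), E5 (0.741) and jim (0.74), and for CCHa1 Fs (r = 0.773), Ugt317A1 (0.707), m (0.672), Gal (0.638) and Shal (0.633). Since 6 libraries hold all the high values of CCHa1-R, Spearman's rho was also computed. It was 0.827 for Blos3, 0.501 for Ptp52F, 0.517 for Acsf2, 0.588 for ND-30 and 0.668 for Jhbp5. The ranking for CCHa1-R includes the otk1 RNAi and WT libraries that chose it, so it is a description. Of the genes ranked for it, only ND-30 passed when otk1 RNAi was added, as the mean of both backgrounds (0.43 ± 0.07, adjusted p = 0.00502 by edgeR).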

How the data were processed

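The authors aligned paired reads of 151 bp to dm6 with STAR 2.7.1a and deposited expected counts and TPM per gene from RSEM 1.3.1 (annotation BDGP6.22, Ensembl release 97, per the methods). No source used here says whether reads were counted by strand. Of the deposited expected counts 11.6% were not whole and were rounded. Genes of rRNA, snoRNA, snRNA and mitochondria (426, 5.99 to 10.9% of counts) were left out, as in the study, and 11154 genes averaging 10 counts or more were tested.

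All 20 libraries entered 1 fit with TMM scaling and the quasi-likelihood test of edgeR 4.0.16 (R 4.3.3), adjusted by Benjamini-Hochberg within a comparison at a threshold of 0.1. Standard errors come from that test. CPM are TMM-scaled and counted over the genes tested. Only TPM, as the authors gave it, was compared between genes. Alternatives were DESeq2 1.42.0, RLE scaling, no filter, the groups compared alone, a replicate block, a covariate for the stage score, a threshold of 0.05 and leaving out each library. Gene positions come from Ensembl release 115.

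The members, gene lists and comparisons were chosen with earlier results of these data known. Genes named are the 4 members, their neighbours, the 5 most correlated genes of each, and up to 3 rises and 3 falls of each list in the mean otk1 RNAi contrast. Others, 6 receptors and 3 precursors in the otk2 RNAi background and 5 genes in the closing section, were named after their values were seen. Summed levels of adult female genes (1.61 to 5.65 CPM) and larval serum proteins (0.696 to 7.38 CPM) were low in every library.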

Additional observations from a re-analysis of the deposited data

How the results depend on the processing

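Of 38 values of the 4 genes, 13 were past the threshold; over 169 alternatives of those, 133 kept direction and side of the threshold, 36 lost the threshold and 0 reversed, while 13 alternatives reversed values that had not passed. Log2 fold changes are given. With the stage score in the model, CCHa2-R fell below the threshold for wnt4 RNAi added to otk2 RNAi (−0.883), across 8 groups (F = 2.19) and against WT in the libraries labelled wnt4 RNAi (−0.537), otk2 RNAi wnt4 RNAi (−1.048) and otk1 RNAi otk2 RNAi (−0.039), and CCHa2 against WT in UAS-otk1 (−1.08), the libraries labelled wnt4 RNAi (−0.51), otk1 RNAi wnt4 RNAi (−0.85) and otk2 RNAi wnt4 RNAi (−0.18). The same model reversed otk1 RNAi added to otk2 RNAi for CCHa1 (0.89), CCHa2 (0.20) and CCHa2-R (0.13), wnt4 RNAi added to otk2 RNAi for CCHa1-R (0.052) and the difference between backgrounds for CCHa1-R (−0.029), none of them past the threshold. At a threshold of 0.05 the values lost were CCHa2-R for wnt4 RNAi added to otk2 RNAi (−1.297), CCHa2 in UAS-otk1 (−1.54) and otk2 RNAi wnt4 RNAi (−0.82), and CCHa2-R in otk1 RNAi otk2 RNAi (−1.21). With only the groups compared they were the same 4, at −1.303, −1.53, −0.83 and −1.215. With no filter CCHa2-R for wnt4 RNAi added to otk2 RNAi (−1.28) and CCHa2 in otk2 RNAi wnt4 RNAi (−0.78) were lost.

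The replicate numbers were related between some groups and not between others. Deviations of same-numbered libraries correlated by over 0.1 in 17 of 45 pairs of groups (−0.23 to 0.63, the highest for WT with UAS-wnt4). The replicate block ended 1 call, CCHa2-R for wnt4 RNAi added to otk2 RNAi (−1.275, adjusted p = 0.107 by edgeR), and changed none of the other 12 calls for which it was run.

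Leaving out each library gave, for otk1 RNAi added to wnt4 RNAi, 3.13 to 3.545 in CCHa1-R; added to otk2 RNAi, 2.23 to 3.17 in CCHa1-R, −1.09 to 0.41 in CCHa1 and −0.54 to 0.10 in CCHa2; and for the mean of both, 2.79 to 3.26 in CCHa1-R, −0.002 to 3.315 in CCHa1 and −0.23 to 0.515 in CCHa2-R. For wnt4 RNAi added to otk2 RNAi the range was −0.77 to 0.17 in CCHa1-R and −1.765 to −0.86 in CCHa2-R. Against WT, CCHa2 ranged from −1.93 to −1.23 in UAS-otk1, −1.32 to −0.92 in the libraries labelled wnt4 RNAi and −1.01 to −0.605 in otk2 RNAi wnt4 RNAi, and CCHa2-R from −2.46 to −0.97 in the libraries labelled wnt4 RNAi and −1.52 to −0.815 in otk1 RNAi otk2 RNAi. A lone library is there assumed to vary like the other groups. The cause of these changes was not tested.

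Counts of genes called moved more: over all alternatives, otk1 RNAi called 15 to 356 genes (72 as reported) when added to wnt4 RNAi, 168 to 1405 (968) when added to otk2 RNAi and 94 to 1021 (425) in their mean. The wnt4 RNAi label added to otk2 RNAi called 498 to 2654 (2321). Against WT the range was 1 to 175 (68) in UAS-wnt4, 43 to 2110 (538) in UAS-otk1 UAS-wnt4, 24 to 2396 (199) in otk2 RNAi, 23 to 4009 (317) in UAS-otk1, 597 to 6727 (6600) in the libraries labelled wnt4 RNAi, 3906 to 7040 (6940) in otk1 RNAi wnt4 RNAi, 210 to 6443 (6099) in otk2 RNAi wnt4 RNAi and 103 to 5895 (5223) in otk1 RNAi otk2 RNAi. At 0 to 23 counts of CCHa1 and 9 to 40 of CCHa1-R outside otk1 RNAi, depth limits both. In CPM, which is not corrected for length, the WT mean of CCHa1-R (0.827) was above that of CCHa1 (0.434), the reverse of the order in TPM. The test across 8 groups was not run in DESeq2. With the stage score in the model, adding otk1 RNAi called 260 genes in the wnt4 RNAi background, 182 in the otk2 RNAi background and 615 in their mean.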

Other observations

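Genes that separated the libraries with otk1 RNAi from the others more widely than CCHa1-R were few, and they were chosen after their values were seen. The lowest of the 6 libraries with otk1 RNAi was 16.1 times the highest of the 14 others for CG43755 on 2L, 14.3 times for Tengl3 on 2L, 6.59 times for the pseudogene CR42653 on 2R, 4.01 times for CG32318 on 3L and 2.8 times for asRNA:CR44975 on 2L. CCHa1-R came next, at 2.6 times. CR42653, the only one of the 5 on the same chromosome arm, lies 16.4 megabases from CCHa1-R. Their mean counts ranged from 14.6 (asRNA:CR44975) to 314.3 (CG43755), against 80.6 for CCHa1-R. Whether counting used strand is not given, so reads of asRNA:CR44975 and of a gene on its other strand cannot be told apart.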
